A study of Mus musculus with 6 samples.

Results

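Nitric oxide and cyclic GMP genes were followed in the hearts of Cav1 knockout and wild-type mice. They are 10 of the 18194 gene symbols on an Affymetrix mouse array, measured by 24 of its 45101 probe sets. A probe set counted when the platform annotation gave it exactly 1 symbol, that of a member. The annotation names the subunits of soluble guanylate cyclase Gucy1a1 and Gucy1b1, and these are called here by their older names, Gucy1a3 and Gucy1b3. The 6 samples are heart tissue of male mice aged 5 to 6 months and fasted for 6 hours, 3 labelled Cav1KO and 3 labelled WT, with 1 array each. The labels give no strain, no deleted exon, and no word on whether the deletion covers all cells. The series' design text gives 3 wild types and 3 knockouts, and each title carries a different number. No label says outright that each sample is a separate animal. The p-values therefore rest on the spread among the samples as given, which may be technical. The samples are called hearts here. Cav1KO replicates are numbered in the order of the samples, because their titles carry no replicate number.

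Nitric oxide is a gas made from arginine by 3 synthases: Nos3 in endothelial cells, Nos1 in neurons and also in heart muscle, and Nos2 in activated macrophages and other cells under inflammation. It diffuses into neighbouring cells and binds the haem of soluble guanylate cyclase, a dimer of the Gucy1a3 and Gucy1b3 products, which then makes cyclic GMP. Cyclic GMP activates the protein kinase encoded by Prkg1, which relaxes smooth muscle, and Pde5a breaks it down. Caveolin-1, the Cav1 product, binds the Nos3 protein in caveolae and inhibits it. That inhibition acts on the protein, while the arrays measured RNA.

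Levels are quantile-normalised intensities on a linear scale, and differences are Cav1KO minus WT of log2(intensity + 16), which understates changes of low probe sets. Intensities of different probe sets are not set against each other, because each probe set has its own brightness. The deposited intensities of an array summed to between 11736722 and 12397257. Cav1, the check of the labels, stood at 118, 101 and 101 in Cav1KO hearts, against 3853, 3836 and 4216 in WT hearts, a log2 difference of -5.02 (SE 0.0674, limma adjusted p = 1.65e-09). Whether that probe set falls inside the deletion is unstated in the labels. The 7 heart muscle markers, among them Myh6 and Tnnt2, showed the labelled tissue in both groups, with summed intensities of 107939 to 109130 in Cav1KO and 108401 to 109526 in WT hearts. None of the 7 passed the test. Several are among the brightest probe sets, where quantile normalisation leaves little room to differ, with Tnni3 at 14116 in every WT heart. Near-equal sums and no calls were thus close to set by the normalisation. The other tested probe sets, with log2 differences of -0.45 (Myh6), -0.013 and -0.25 (Tnnt2) and -0.10 (Ryr2), did not pass. Groups did not overlap at -0.45 and -0.25, nor at 26.3% of all tested probe sets. WT replicate 1 lay away from the other WT hearts for several members. Results are given without it as well for Nos1, Nostrin, Gucy1b3 and Prkg1.

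Nos3 rose, and it was the only member past the threshold. Of the 24 probe sets, 16 were bright enough to be tested, at least 1 for every gene. The filter kept the upper 50% of probe sets by mean over all arrays. At a Benjamini-Hochberg adjusted p of 0.05 over all 22519 probe sets tested with limma, 1 of the 16 was higher in Cav1KO hearts, 0 were lower and 15 did not pass. Across the array, 3.17% of tested probe sets were called, 2.36% as higher and 0.813% as lower, which comes to 714, of them 531 higher and 183 lower. The split moves with the scaling: it was 577 higher and 58 lower with intensities as deposited, and 585 higher and 41 lower with each array centred on its median. Cav1KO and WT hearts did not overlap for 3 of the 16, a share of 18.8%, beside 26.3% of all tested probe sets. The 16 are few and some share a gene, so nothing is read from that gap. An unadjusted p under 0.05 was reached by 4 of the 16, against 20% of all tested probe sets. The median log2 difference was 0.024 over the 16 and -0.0096 over all tested probe sets.

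**Figure D1:**
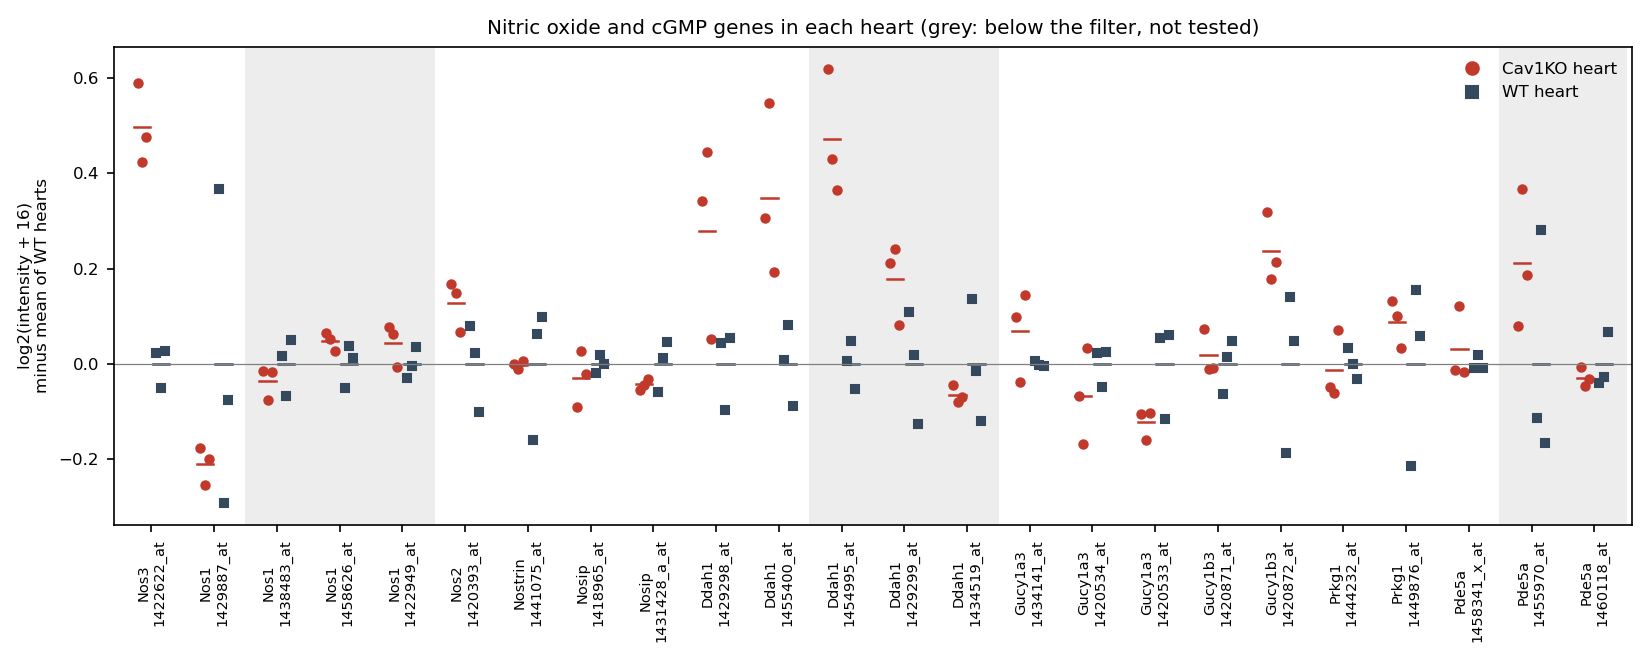
Each point is a heart, given as log2(intensity + 16) minus the mean of the 3 WT hearts, for each of the 24 probe sets (horizontal axis); circles are Cav1KO, squares are WT, short lines are group means, and grey marks the 8 probe sets below the filter. The 3 Cav1KO hearts sit above all WT hearts for Nos3, for Ddah1 at 2 probe sets and for Gucy1b3 at 1, while WT replicate 1 stands apart for Nos1.

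The synthases come first. Nos3, whose product makes the nitric oxide of the vessel lining, had intensities of 604, 536 and 557 in Cav1KO hearts, against 403, 382 and 404 in WT hearts. All 3 Cav1KO hearts were above all 3 WT hearts, with the lowest Cav1KO heart well clear of the highest WT heart. The means were 566 ± 34.9 in Cav1KO and 396 ± 12.5 in WT hearts (SD, n = 3 each). Its log2 difference was 0.50 (SE 0.0586, limma adjusted p = 0.0037), a 1.41-fold rise with a 95% interval of 1.29 to 1.55. Among the 531 probe sets that rose, it ranked 191 by size of difference, and the median rise was 0.43 on the log2 scale. Leaving out any 1 heart kept Nos3 past the threshold, with log2 differences between 0.45 and 0.53. Only 1 probe set on the array measures Nos3 under the rule, so no second probe set of the gene could be compared.

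Nos1, the neuronal synthase, was tested at 1 of its 4 probe sets, with intensities of 63.5, 59.4 and 62.4 in Cav1KO hearts, against 100, 57.5 and 69.4 in WT hearts. The Cav1KO hearts were close together and lay inside the WT range, which WT replicate 1 stretched upwards. Its log2 difference of -0.21 did not pass (95% interval -0.54 to 0.12, limma adjusted p = 0.433), and it was -0.027 without WT replicate 1 and -0.36 without WT replicate 2, neither past the threshold. The other 3 probe sets of Nos1 were below the filter, at intensities of 14.7 to 24.5, with log2 differences of -0.036, 0.048 and 0.044. Nerve and glia markers set beside it were sparse: S100b and Th were below the filter, and Sox10 and Dbh did not pass. The summed intensity of Sox10 and Dbh was 293 to 339 in Cav1KO and 330 to 438 in WT hearts, and its part in the Nos1 values was not tested.

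Nos2, the inducible synthase, was just inside the filter, with a mean log2 value of 6.00 where the lowest tested was 5.92. It stood at 52.6, 51.7 and 48 in Cav1KO hearts, against 48.5, 46.1 and 40.9 in WT hearts. The groups overlapped, because the lowest Cav1KO heart was below the highest WT heart. The log2 difference of 0.13 did not pass (95% interval -0.041 to 0.30, limma adjusted p = 0.365), and it was 0.077 without WT replicate 3. Of 6 macrophage markers, 2 rose, 0 fell and 4 did not pass, where 4.02% of all genes were called at their brightest probe set. The marker list was chosen with earlier results of these data known, so that share is given as description only. The summed intensity of the 6 was 5111 to 5275 in Cav1KO and 3978 to 4698 in WT hearts. Ptprc, the leukocyte surface phosphatase CD45, had a log2 difference of 0.75 (limma adjusted p = 0.014), and missed the threshold without WT replicate 1, Cav1KO replicate 1 or Cav1KO replicate 2, at adjusted p of 0.0502, 0.082 and 0.063. Mpeg1, a macrophage pore protein, had 0.52 (limma adjusted p = 0.0403) and missed the threshold under 7 alternatives. Cd68 and Lyz2 had log2 differences of 0.32 and 0.25 and did not pass. The part of macrophages in the Nos2 values was not tested.

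The proteins that bind the synthases showed no difference past the threshold. Nostrin, whose product carries Nos3 away from the plasma membrane, stood at 115, 114 and 116 in Cav1KO hearts, against 101, 121 and 125 in WT hearts. The Cav1KO hearts were almost equal and lay inside the WT range. Its log2 difference was -0.0021, with a 95% interval of -0.18 to 0.18 (limma adjusted p = 0.99), so that changes up to about 1.13-fold in either direction remain within it. Without WT replicate 1, the remaining WT hearts were above every Cav1KO heart, and the log2 difference was -0.084 (limma adjusted p = 0.51). Nosip, a ubiquitin ligase that also binds Nos3, was tested at both of its probe sets. The brighter gave 212, 231 and 223 in Cav1KO hearts, against 224, 230 and 227 in WT hearts. The other gave 205, 207 and 209 in Cav1KO hearts, against 205, 216 and 221 in WT hearts. Groups overlapped at both, and the log2 differences of -0.029 and -0.043 had 95% intervals of -0.16 to 0.10 and -0.17 to 0.086. Both differences, and that of Nostrin, turned positive with intensities as deposited or centred on the median, and did not pass there either.

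Ddah1 was higher at some of its probe sets, none of them past the threshold in the filtered data. Its enzyme degrades asymmetric dimethylarginine, a natural inhibitor of the nitric oxide synthases. It has 5 probe sets, of which 2 were tested and 4 had a positive difference. The brightest had intensities of 95.4, 104 and 75.1 in Cav1KO hearts, against 74.7, 66.2 and 75.2 in WT hearts. There Cav1KO replicate 3 lay within the WT range while the other Cav1KO hearts lay above it. The second in brightness had 79.8, 97.3 and 72.6 in Cav1KO hearts, against 61.9, 66 and 56.9 in WT hearts, and the groups did not overlap. Their log2 differences were 0.28 (95% interval 0.043 to 0.51, limma adjusted p = 0.187) and 0.35 (95% interval 0.13 to 0.57, limma adjusted p = 0.101). Over all alternatives they ran from 0.19 to 0.39 and from 0.23 to 0.43, and neither passed under any, with lowest adjusted p of 0.0638 and 0.0571.

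The third Ddah1 probe set in brightness was just outside the filter, with a mean log2 value of 5.80. It stood at 56.8, 47.8 and 45 in Cav1KO hearts, against 31.6, 32.9 and 29.6 in WT hearts, and every Cav1KO heart was above every WT heart. With the upper 75% of probe sets tested, its rise was 0.47 in log2 units, with an SE of 0.0776 and a limma adjusted p of 0.0185. It passed as well with all probe sets tested (adjusted p = 0.0255). At the upper 75%, hearts were also left out 1 at a time. It then missed the threshold without WT replicate 1, WT replicate 3, Cav1KO replicate 1 or Cav1KO replicate 2. The limma adjusted p values were 0.0515, 0.0912, 0.0711 and 0.0715. Its mean log2 value in WT hearts was 5.57, below the lowest tested mean of 5.92. The remaining 2 Ddah1 probe sets were also below the filter, with log2 differences of 0.18 and -0.065. The weakest was at 15.5, 14.8 and 15 in Cav1KO hearts, against 19.7, 16.2 and 13.9 in WT hearts, and did not share the direction of the others.

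Soluble guanylate cyclase, the receptor of nitric oxide, was tested at all 5 of its probe sets, and none passed. The brightest of the 3 probe sets of Gucy1a3, the alpha subunit, had 721, 654 and 744 in Cav1KO hearts, against 675, 672 and 670 in WT hearts. The WT hearts were nearly equal there, and the Cav1KO hearts lay on both sides of them. Log2 differences of the 3 were 0.068, -0.068 and -0.12, and the widest reach of their 95% intervals was from -0.28 to 0.19. The second of them turned to 0.006 as deposited and 0.025 when centred on the median.

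Gucy1b3, the beta subunit that carries the haem, gave unlike values at its 2 probe sets. At the brighter it stood at 362, 340 and 341 in Cav1KO hearts, against 328, 347 and 355 in WT hearts, with a log2 difference of 0.018 (95% interval -0.11 to 0.15). At the dimmer it stood at 368, 332 and 341 in Cav1KO hearts, against 254, 323 and 302 in WT hearts. All Cav1KO hearts were above all WT hearts at that probe set, where WT replicate 1 was the lowest. The log2 difference of 0.24 did not pass (95% interval 0.041 to 0.43, limma adjusted p = 0.181), and without WT replicate 1 it was 0.14. The annotation places both probe sets in 1 gene, and the arrays do not show which of them follows the transcript that makes the protein.

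The kinase and the phosphodiesterase downstream of cyclic GMP did not pass either. Prkg1, the cyclic GMP-dependent kinase, had 234, 232 and 256 at its brighter probe set in Cav1KO hearts, against 249, 243 and 237 in WT hearts. Its groups overlapped, and the log2 difference was -0.013 (95% interval -0.15 to 0.12), against 0.06 as deposited and 0.079 when centred on the median. The dimmer probe set had 89.3, 86.9 and 82.3 in Cav1KO hearts, against 66.8, 91 and 84.1 in WT hearts, with WT replicate 1 again the lowest. Its log2 difference was 0.089 (95% interval -0.13 to 0.31), and -0.019 without WT replicate 1. Pde5a, the enzyme that sildenafil inhibits, was tested at 1 of 3 probe sets, with 63.5, 71.3 and 63.3 in Cav1KO hearts, against 63.7, 65.3 and 63.8 in WT hearts. Only Cav1KO replicate 2 stood out, and the log2 difference was 0.03 (95% interval -0.12 to 0.19, limma adjusted p = 0.826). The other 2 Pde5a probe sets, below the filter, had log2 differences of 0.21 and -0.029 with overlapping groups.

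Smooth muscle cells and pericytes, which hold much of the machinery downstream of nitric oxide, were followed through their own markers. None of 7 smooth muscle markers and none of 6 pericyte markers passed in either direction. Over all genes, 4.02% were called at their brightest probe set, so the absence of calls in lists this short says little. For smooth muscle, summed intensities were 5855 to 6247 in Cav1KO and 5788 to 6282 in WT hearts. For pericytes they were 13103 to 13218 in Cav1KO and 12356 to 12936 in WT hearts, without overlap. Groups did not overlap at 26.3% of all tested probe sets, so that gap alone says little. Median log2 differences were -0.10 for smooth muscle and 0.049 for pericytes.

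**Figure D2:**
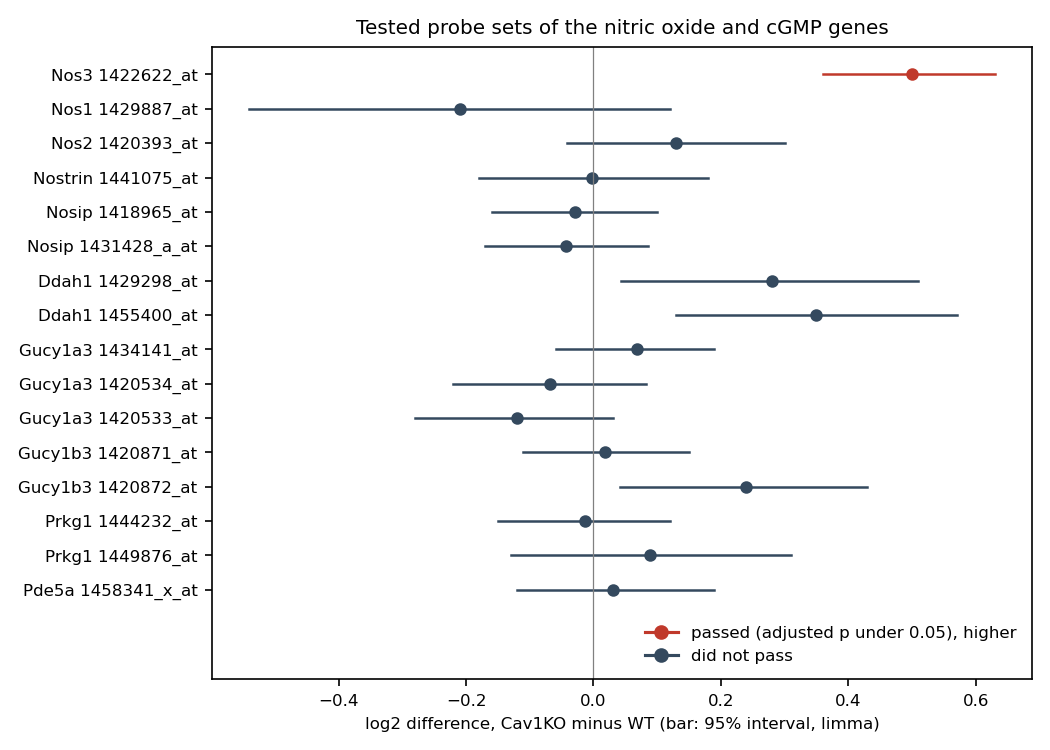
Points are the log2 differences, Cav1KO minus WT, of the 16 tested probe sets from limma, and bars are their 95% intervals; red marks the probe set past the threshold. Nos3 stands at 0.50, and the intervals of both Ddah1 probe sets and of 1 Gucy1b3 probe set leave out 0 without passing the adjusted threshold.

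Some endothelial markers rose in the same hearts as Nos3, and others did not pass. In a bulk tissue, fewer or more cells of a type and less or more RNA per cell cannot be told apart, so Nos3 was set beside 15 endothelial markers. Of the 15, 6 rose, 0 fell and 9 did not pass. Over the brightest probe sets of all 11486 genes tested, 4.02% were called. The list was chosen with earlier results of these data known, so the comparison is description only. The count of 6 stood between 3 and 6 over the alternatives, with 0 fallen in each, and was 3 without WT replicate 3 or Cav1KO replicate 2, with no filter, and without a trend. Pecam1, the junction protein CD31, rose by 0.71 on the log2 scale (limma adjusted p = 0.00095), and Tek and Tie1, receptors of the angiopoietin pathway, rose by 0.49 and 0.42. Erg, an endothelial transcription factor, rose by 0.43 with a limma adjusted p of 0.037, and missed the threshold under 6 alternatives. The summed intensity of the 15 was 9275 to 10555 in Cav1KO and 7953 to 8298 in WT hearts. No marker was below the filter in this list, and the median log2 difference was 0.18.

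The markers did not move as 1 block. Their log2 differences ran from -0.25, at Robo4, to 0.72, at Cldn5, which passed (limma adjusted p = 0.0379), and 2 of the 15, Pecam1 and Cldn5, exceeded that of Nos3. Kdr, the main receptor of VEGF, had -0.039 and Cdh5, the cadherin of endothelial junctions, 0.13, and neither passed. Robo4, a guidance receptor of endothelial cells, did not pass either (limma adjusted p = 0.12), with every Cav1KO heart below every WT heart. The mean log2 value of the 15 markers was 9.32, 9.18 and 9.14 in Cav1KO hearts, against 8.96, 8.93 and 8.98 in WT hearts, a difference of 0.26. Nos3 minus that mean was -0.05, -0.07 and 0.02 in Cav1KO hearts, against -0.25, -0.29 and -0.27 in WT hearts. All 3 Cav1KO hearts were higher, and the difference of 0.24 had p = 0.1 in the exact permutation test (two-sided, n = 3 each), the smallest p that 3 against 3 allows. It stayed between 0.22 and 0.26 over the 11 alternatives run on it. Set against single markers, the difference was 0.54 against Kdr, 0.36 against Cdh5, 0.004 against Tek and -0.21 against Pecam1, so its size depends on the marker chosen.

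**Figure D3:**
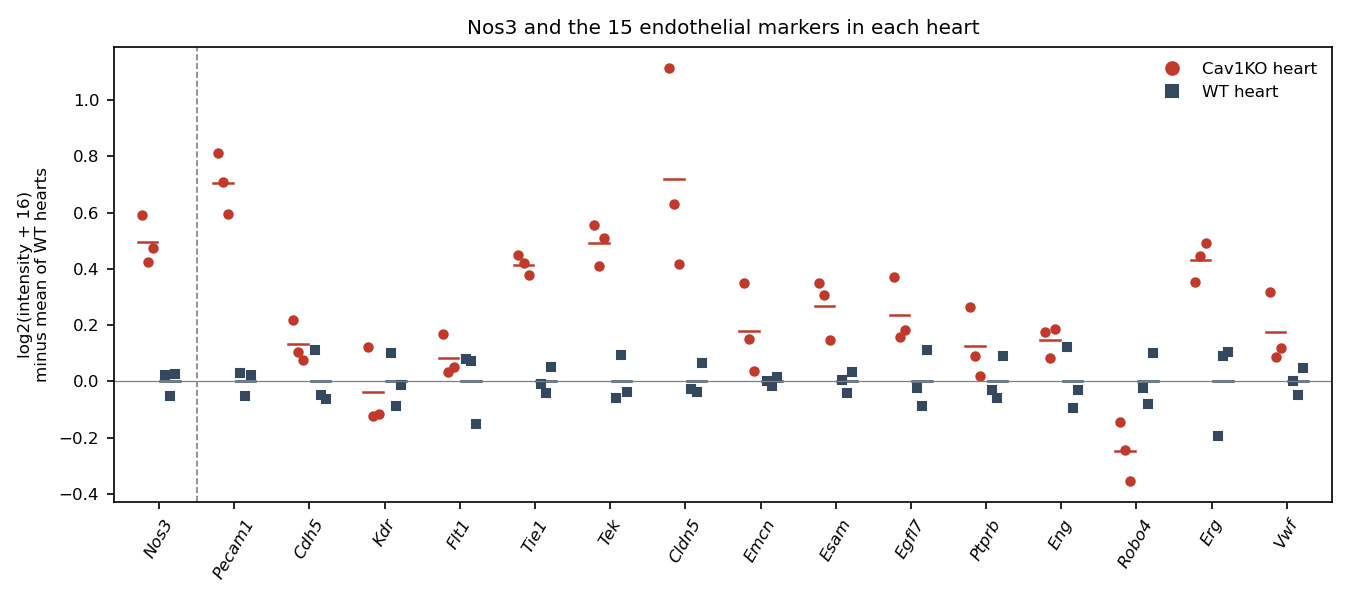
Each point is a heart, given as log2(intensity + 16) minus the mean of the 3 WT hearts, for Nos3 (left of the dashed line) and the brightest probe set of each of the 15 endothelial markers; circles are Cav1KO, squares are WT and short lines are group means. Nos3, Pecam1, Tie1, Tek, Cldn5, Emcn, Esam, Egfl7, Erg and Vwf have every Cav1KO heart above every WT heart. Robo4 has every Cav1KO heart below every WT heart, and Cdh5, Kdr, Flt1, Ptprb and Eng overlap. Emcn, Egfl7, Vwf and Robo4 did not pass the test, and groups did not overlap at 26.3% of all tested probe sets.

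Among other genes of the pathway, Cyb5r3 and Npr3 rose and Pde1c fell. The lists held 56 genes, of which 7 were not analysed here and 8 were below the filter. Of the 41 tested at their brightest probe set, 2 rose, 1 fell and 38 did not pass. That is 7.32% called, beside 4.02% of the brightest probe sets of all genes. These lists too were chosen with earlier results known, so the shares are description only. The median log2 difference was -0.012, beside -0.014 over all genes. Lists of arginine and cofactor supply (8 tested), synthase partners (7), methylarginine turnover (2), kinase targets (6) and shear factors (2) had 0 genes past the threshold.

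Cyb5r3 encodes cytochrome b5 reductase, which in vessels returns the haem iron of soluble guanylate cyclase to the form that senses nitric oxide, and which also sets how fast alpha globin in endothelial cells consumes nitric oxide. It stood at 1205, 1221 and 1200 in Cav1KO hearts, against 910, 932 and 903 in WT hearts, with wide separation and tight groups. Its rise was 0.40 in log2 units, with an SE of 0.0397 and a limma adjusted p of 0.00181. Rises of 0.30 and 0.31 were found at 2 further tested probe sets of the gene. One more was below the filter with a log2 difference of -0.018. Mb, myoglobin, and Adh5, which clears nitrosoglutathione, did not pass.

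Npr3 encodes the clearance receptor that removes natriuretic peptides, whose other receptors make cyclic GMP at the membrane. It stood at 441, 396 and 488 in Cav1KO hearts, against 267, 274 and 307 in WT hearts, and the groups did not overlap. Its rise was 0.61 in log2 units, with an SE of 0.0835 and a limma adjusted p of 0.00675, another probe set rose by 0.52 (adjusted p = 0.0401), and a further one had 0.40 and did not pass (adjusted p = 0.0769). The peptides themselves, Nppa and Nppb, had log2 differences of -0.084 and -0.015 and did not pass, nor did the receptor Npr2. None of 4 atrial markers, Nppa among them, passed, and their summed intensity was 27645 to 31887 in Cav1KO and 29119 to 35004 in WT hearts.

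Pde1c encodes a calcium- and calmodulin-activated phosphodiesterase that breaks down both cyclic AMP and cyclic GMP. It stood at 233, 237 and 263 in Cav1KO hearts, against 314, 369 and 329 in WT hearts, and all Cav1KO hearts were lower. Its log2 difference was -0.44, with an SE of 0.0753 and a limma adjusted p of 0.0189, while its other 3 tested probe sets, at -0.31, -0.14 and -0.081, did not pass. It missed the threshold with intensities as deposited (adjusted p = 0.0874), centred on the median (0.119), and without WT replicate 3, Cav1KO replicate 1 or Cav1KO replicate 2 (0.065, 0.0999 and 0.0895). The other 7 phosphodiesterases of cyclic GMP tested, Pde2a and Pde3a among them, did not pass.

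In the remaining lists the gene with the smallest p is given. Gchfr, which feeds back on synthesis of the cofactor tetrahydrobiopterin, had a log2 difference of -0.35 (limma adjusted p = 0.078), and passed with array weights and without WT replicate 1, at adjusted p of 0.0254 and 0.0399. Hsp90aa1, a chaperone that helps activate Nos3, stood at 2727, 1985 and 1592 in Cav1KO hearts, against 1320, 1373 and 1498 in WT hearts. Its Cav1KO hearts were spread widely above the WT hearts, and the log2 difference of 0.55 did not pass (adjusted p = 0.105). It was 0.34 without Cav1KO replicate 1 (adjusted p = 0.177) and 0.73 without Cav1KO replicate 3, where it passed (adjusted p = 0.0207). Other tested probe sets of Hsp90aa1 had 0.68 and 0.47 and did not pass (limma adjusted p = 0.122 and 0.229). Groups overlapped at the latter. Ddah2, the relative of Ddah1, had 0.13, Ppp1r12a, a myosin phosphatase subunit that the cyclic GMP kinase acts on, 0.18, and Klf4, a factor induced by shear stress that raises Nos3, 0.46, and none of them passed. Klf4 varied within groups, at 549, 822 and 509 in Cav1KO hearts, against 456, 520 and 361 in WT hearts, and its log2 difference was 0.25 without Cav1KO replicate 2. That of Ddah2 was 0.08 without Cav1KO replicate 3, and that of Ppp1r12a 0.11 without WT replicate 1. The other tested probe sets of Ppp1r12a had log2 differences of 0.042, 0.013 and 0.00053, and did not pass.

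Slc7a1, the main carrier of arginine into endothelial cells, had negative differences at both tested probe sets, and only the dimmer of them passed. Its brightest had a log2 difference of -0.29 (limma adjusted p = 0.104) and did not pass. The second fell by 0.45 (adjusted p = 0.0319), with 202, 242 and 257 in Cav1KO hearts, against 347, 310 and 316 in WT hearts. The groups did not overlap at either. A further probe set, below the filter, had a log2 difference of -0.046.

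**Figure D4:**
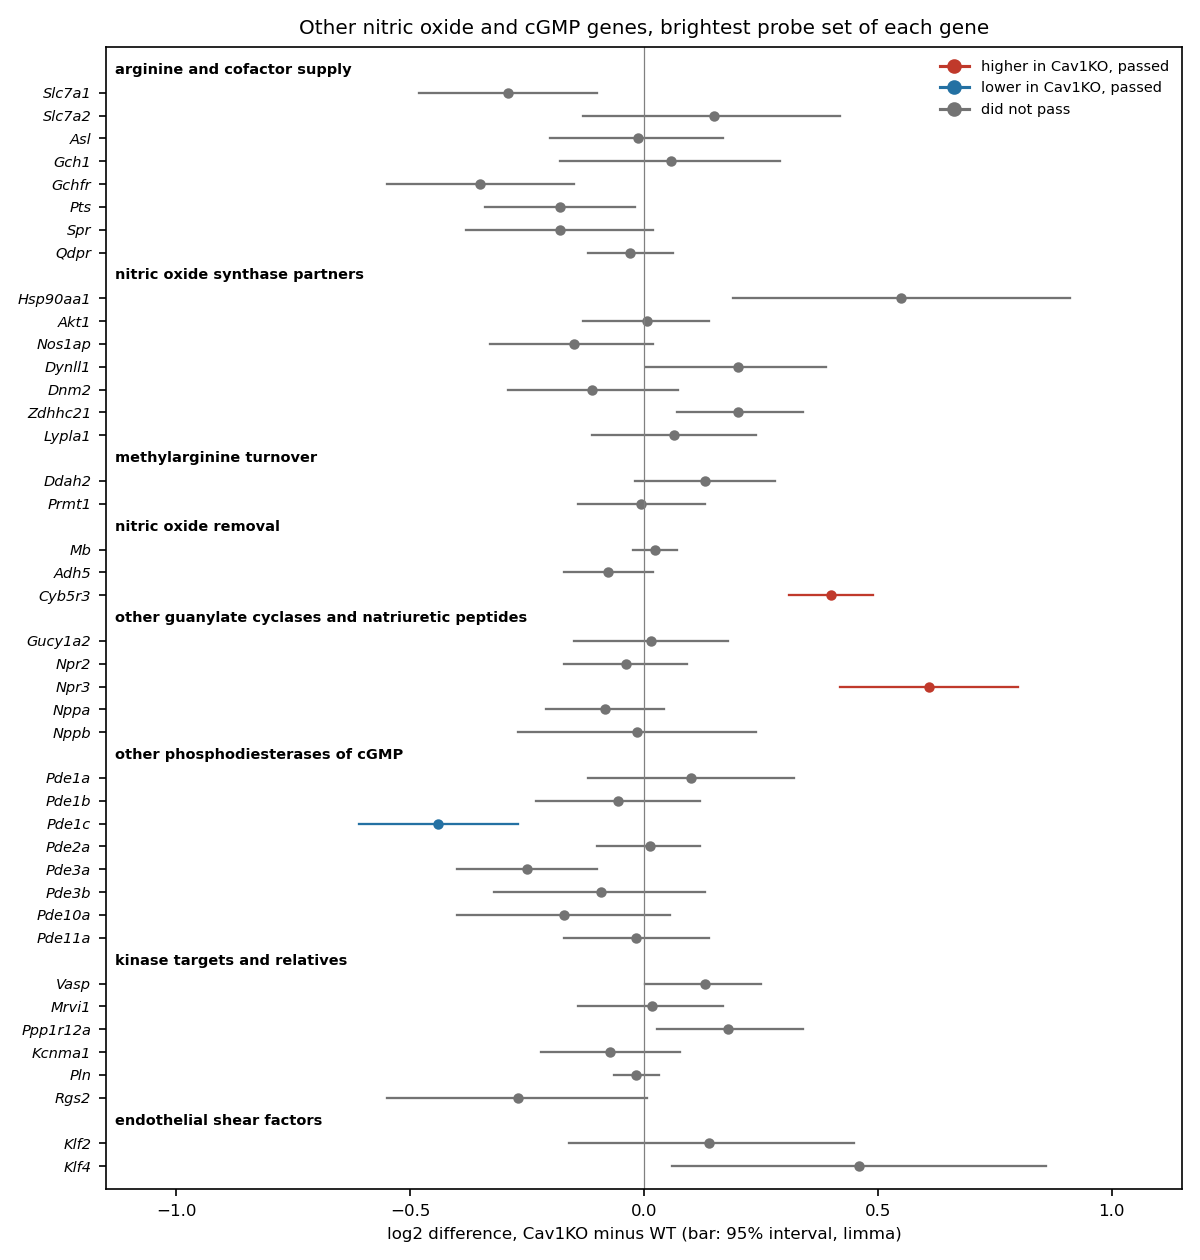
Points are log2 differences, Cav1KO minus WT, of the brightest probe set of each of the 41 tested pathway genes, grouped by list, and bars are 95% intervals from limma; red marks genes that rose, blue the gene that fell. Npr3 at 0.61, Cyb5r3 at 0.40 and Pde1c at -0.44 passed, and the rest did not.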

How the data were processed

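RNA of 6 hearts was hybridised to 1 Affymetrix array each, from 2 ug of total RNA per the labels' protocols. The authors deposited 1 linear intensity per probe set and array. The submitters' processing notes list GCOS 1.4 without saying what it was used for, and the labels do not state how probe sets were summarised, background-corrected or scaled. Names came from the platform annotation (34945 probe sets with 1 symbol, 932 with several, 9160 unnamed), and all 10 member symbols matched RefSeq's table.

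After removal of 64 control probe sets the arrays were quantile normalised, a pseudocount of 16 was added and log2 taken. The upper 50% by mean (22519 of 45037) were tested with limma 3.58.1 in R 4.3.3 (lmFit, eBayes with a trend, no covariate, Benjamini-Hochberg over all tested). The 95% intervals are not adjusted. The number of arrays limits the precision. The fit was tested on simulated data. Pathway and marker lists used the brightest probe set per gene. Named were all member probe sets, called pathway genes, each pathway list's gene with the smallest p, and up to 4 markers per list; Cldn5, Kdr, Cdh5, Robo4, Slc7a1 and any other gene named outside this rule were chosen after their values were seen. The members and lists were chosen with earlier results of these data known. Alternatives were other normalisations, pseudocounts of 1 and 64, filters at 75%, 25% and none, no trend, array weights and leaving out each heart. Leaving out hearts for Ddah1 at the 75% filter and the endothelial count under alternatives were added after seeing the data. Sequences were not used.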

Additional observations from a re-analysis of the deposited data

How the results depend on the processing

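Nos3 rose under all 15 alternatives, by 0.45 to 0.58 on the log2 scale, with limma adjusted p from 0.00235 to 0.0215. Calls among members were 2, Nos3 and a Ddah1 probe set, with the upper 75% of probe sets or no filter, which test more probe sets, and 1 otherwise. Over the array, 714 calls became 411 without a trend, 1171 with array weights and 189 to 749 with 1 heart left out. The 3 pathway genes called at their brightest probe set became 5 with array weights and 2 to 5 with 1 heart left out. With every probe set of these genes counted (79 tested), 7 probe sets passed, all of Slc7a1, Cyb5r3, Npr3 or Pde1c. Of 233 member values under alternatives, 22 had the other sign, all short of the threshold. As deposited and centred on the median, they were 0.041 and 0.059 for Nostrin, 0.041 and 0.06 and then 0.027 and 0.046 for the Nosip probe sets, 0.006 and 0.025 for the second probe set of Gucy1a3, and 0.06 and 0.079 for the brighter of Prkg1. The brighter Gucy1b3 probe set was -0.0035 with array weights. With 1 heart left out, ranges were -0.084 to 0.047 for Nostrin, -0.056 to 0.002 for the brighter Nosip, -0.013 to 0.041 for the brighter Gucy1b3, -0.055 to 0.011 and -0.019 to 0.17 for Prkg1, and -0.015 to 0.054 for Pde5a. The cause was not tested. No paired analysis was possible because the labels give no batch, litter or pairing. Without signal over background in the table, a low intensity cannot be told from background.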

Other observations

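Genes of the pathway below the filter were not tested, and 2 of them, chosen after their values were seen, are given as values. Npr1, the receptor through which atrial natriuretic peptide makes cyclic GMP, stood at 28.3, 32.1 and 29.8 in Cav1KO hearts, against 24.5, 26.7 and 26.9 in WT hearts, a log2 difference of 0.13 with no overlap. Pde9a, a phosphodiesterase selective for cyclic GMP, stood at 43.7, 48.2 and 36.2 in Cav1KO hearts, against 31.1, 29.7 and 37.1 in WT hearts, a log2 difference of 0.27 with 1 Cav1KO heart inside the WT range.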
